A study of Mus musculus with 4 samples.

Results

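Cells that kill other cells carry a small set of effector proteins, and 6 genes that encode them (Gzma, Gzmb, Prf1, Nkg7, Ifng and Ctsw) were followed through CD45+ leukocytes of the injured gut muscularis. They were chosen by name and are 6 of the 16308 genes counted in each library. Single cells were sequenced in droplets from CD45+ leukocytes sorted from the muscularis externa, the outer muscle layer, of the small intestine of 12-week-old mice. There were 4 libraries, 1 per group. WT mice were C57BL/6J, and CCR2 KO mice were Ccr2-/- of the strain B6.129S4-Ccr2tm1Ifc/J. Each genotype was taken at 24 h and at 72 h after intestinal manipulation, a surgical handling that inflames the muscularis, so all mice were injured and none was naive. According to the study's methods the mice were female and each library pooled several of them. The deletion is present in every cell of the CCR2 KO mice, which lack the receptor that monocytes use to leave the bone marrow.

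Granzymes A and B are serine proteases of the cytotoxic granule. Perforin, encoded by Prf1, forms the pores through which they enter a target cell. Nkg7 is a membrane protein of the granule, cathepsin W (Ctsw) is a protease made by natural killer (NK) and cytotoxic T cells, and Ifng encodes interferon-gamma, the cytokine with which these cells activate Mφs. NK cells and CD8+ T cells are the best known carriers of the granule. Intraepithelial T cells of the gut are known to hold granzymes, and regulatory T cells and basophils can make granzyme B.

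At 24 h the WT library held 1674 cells and the CCR2 KO library 1774, and at 72 h they held 1315 and 1048, with between 9736725 and 21206308 UMIs (counted molecules) per library. Median UMIs per cell were 12859 and 12427 in WT and 3282 and 4990 in CCR2 KO. Ccr2 stood at 720.3 and 922.6 CPM (UMIs per 1000000 UMIs) in WT and at 47.33 and 53.71 CPM in CCR2 KO, and whether the counted 3' end lies in the deleted part was not examined. With 1 library per group there is no spread between replicates, and no test was run. Every range in parentheses is a 95% interval of counting error alone (exact Poisson for levels, exact binomial for shares and ratios), which leaves out the spread between mice.

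Cells were put in classes by the number of markers of each leukocyte type that they held. Series of 4 values below give the 24 h libraries first, each time with WT before CCR2 KO. NK cell-like cells numbered 5, 29, 16 and 36, T cell-like cells 12, 64, 48 and 99, and innate lymphoid cell (ILC)-like cells 2, 17, 10 and 23. All 9 NK markers were detected in the NK cell-like cells of each library and all 11 T markers in the T cell-like cells. NK cell-like cells also held T markers, at 1132 to 1560 CPM in sum with 3 to 9 of the 11 detected, against 8257 to 10111.2 CPM in T cell-like cells. Of 5811 cells, 259 had no class and 256 passed the gates of several lineages. In all, 4 cell barcodes occurred in more than 1 library, and 1 cell with such a barcode held a member UMI.

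The start regions of Gzma, Gzmb and Prf1 are shown because these are the members whose levels set NK and T cells apart in different ways. They are RefSeq promoters on GRCm38.p6, from 250 bases before to 50 bases after the start given by RefSeq, written 5′ to 3′ along the gene. The gene coordinates given further below come from GENCODE, whose starts can differ. For Gzmb the GENCODE start is 56262260 on the minus strand, so the whole window lies before it. Capitals mark the RUNX core TGTGGT and the T-box core TCACAC, on either strand, named for families of transcription factors that act in NK and T cells. Gzma is at chr13:113100932-113101231 (minus strand), Gzmb at chr14:56262285-56262584 (minus strand) and Prf1 at chr10:61297586-61297885 (plus strand).
Gzma: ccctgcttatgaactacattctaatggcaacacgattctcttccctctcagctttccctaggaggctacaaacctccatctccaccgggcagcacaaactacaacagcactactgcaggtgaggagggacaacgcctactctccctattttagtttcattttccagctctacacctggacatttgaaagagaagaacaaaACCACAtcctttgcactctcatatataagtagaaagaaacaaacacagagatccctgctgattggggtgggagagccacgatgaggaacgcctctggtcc
Gzmb: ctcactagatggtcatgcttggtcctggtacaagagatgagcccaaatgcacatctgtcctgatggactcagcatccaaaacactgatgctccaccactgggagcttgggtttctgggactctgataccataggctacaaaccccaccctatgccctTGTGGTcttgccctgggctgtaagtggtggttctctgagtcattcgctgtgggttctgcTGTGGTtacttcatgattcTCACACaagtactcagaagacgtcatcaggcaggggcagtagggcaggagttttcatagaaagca
Prf1: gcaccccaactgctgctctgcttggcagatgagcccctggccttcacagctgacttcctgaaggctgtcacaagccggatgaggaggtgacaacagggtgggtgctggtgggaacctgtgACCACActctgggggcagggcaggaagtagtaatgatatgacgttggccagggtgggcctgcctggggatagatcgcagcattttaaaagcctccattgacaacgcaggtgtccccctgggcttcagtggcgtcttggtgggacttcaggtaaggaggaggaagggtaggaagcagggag
The RUNX letters stood 1 time in Gzma, 1 time in Prf1 and 2 times in Gzmb, and 16.8% of 32851 promoters of 300 bases hold them. The T-box letters stood 1 time in Gzmb and not in the windows of Gzma or Prf1, and 14.5% of promoters hold them. Nkg7 (chr7:43436888-43437187, plus strand) held 1 copy of each. Ifng (chr10:118440796-118441095, plus strand) held neither, and had 1 TATA box (TATAAA, searched on the forward strand only), as 8.32% of promoters do. These matches are descriptions of short letters and not of binding.

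The 6 genes were held mainly by lymphoid classes. Over the 4 libraries, T, NK and ILC-like cells together held 97.8% of the Prf1 UMIs (96.1 to 98.9, 488 of 499), 94.7% of Nkg7 (93.8 to 95.4), 94.5% of Ifng (88.5 to 98), 92.7% of Ctsw (91.2 to 94.1), 83.8% of Gzmb (82.5 to 85.1) and 80.3% of Gzma (79.3 to 81.3). NK cell-like cells alone held 84.2% of the Prf1 UMIs (80.7 to 87.3), 53.3% of Nkg7 and 49.3% of Gzma. T cell-like cells held the larger part of Gzmb (57.5%, 55.7 to 59.3) and of Ifng (57.3%, 47.5 to 66.7, of 110 UMIs). A further 17.5% of Gzma lay in cells of no class, nearly all of it in 2 cells that are described with the T cells.

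**Figure D1:**
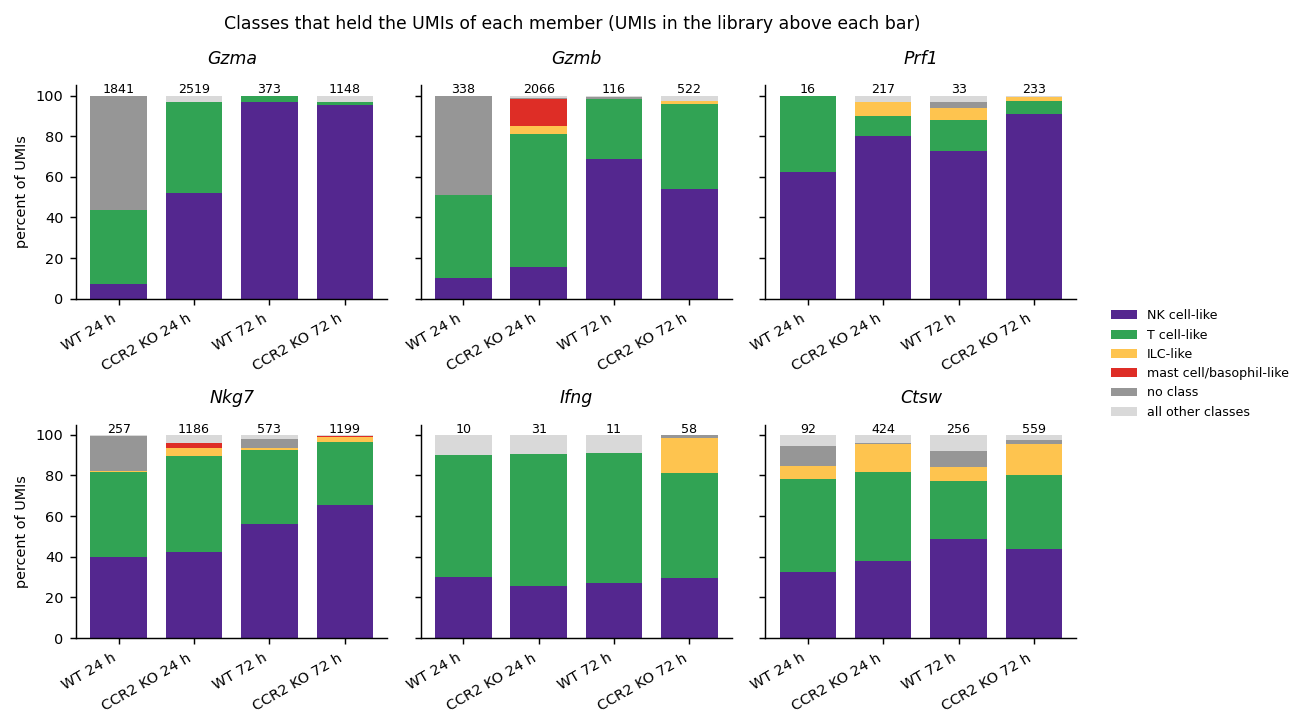
Percent of the UMIs of each gene (vertical axis) that lay in each class, for each library (bars, with the number of UMIs in the library above). Prf1 was held mainly by NK cell-like cells in every library, whereas the Gzma of WT 24 h was held by cells of no class (56%) and T cell-like cells (36.4%).

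The share of myeloid cells with a member UMI was taken as the background. Whether these UMIs came from free RNA or mixed droplets was not tested. Among 4802 monocyte/Mφ-like and neutrophil-like cells thinned to 1000 UMIs each, 0.271% held a Gzma UMI, 0.125% Nkg7, 0.0833% Gzmb, 0.0208% Ifng and 0.0208% Ctsw. None held Prf1, which allows a share of up to 0.0625%. Before thinning, these cells held 93 Gzma UMIs, of which 68 lay in cells that passed the gates of several lineages, and 33 Ctsw UMIs, of which 32 did. Median depths were 14293 to 16383 UMIs in monocyte/Mφ-like and 2156 to 3511 UMIs in neutrophil-like cells. Of 62 B cell-like cells, 1 held any member.

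**Figure D2:**
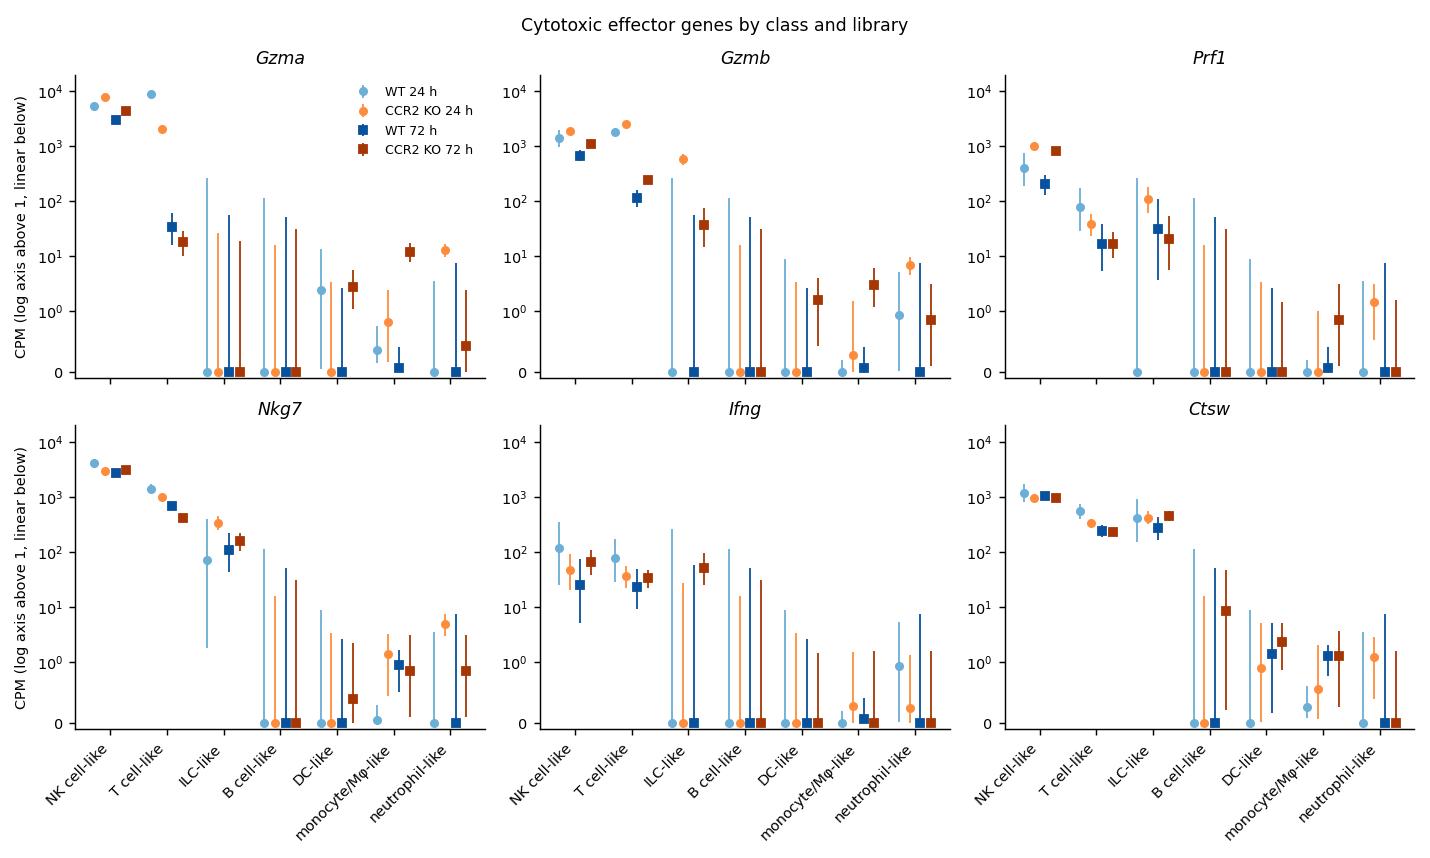
CPM of each gene (vertical axis, log above 1 and linear below) in 7 classes and 4 libraries, as points with 95% Poisson intervals. NK, T and ILC-like cells stood above B cell-like and myeloid classes for most genes, and Gzma in T cell-like cells stood at 33.33 CPM or less at 72 h.

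Gzma (granzyme A; chr13:113093825-113100981, minus strand, ENSMUSG00000023132.8) was abundant in NK cells in all 4 libraries. Its level in NK cell-like cells was 5280 CPM (4418 to 6261) and 7677 (7267 to 8104) at 24 h, and 3043 (2738 to 3374) and 4284 (4034 to 4546) at 72 h. In T cell-like cells it was 8775 CPM (8123 to 9466), 2057 (1939 to 2181), 33.33 (15.98 to 61.3) and 17.84 (10.19 to 28.96). T cells thus stood above NK cells in WT 24 h and below them in the other 3 libraries, with log2 ratios of NK over T of -0.73 (-1.01 to -0.46), 1.90 (1.78 to 2.02), 6.51 (5.62 to 7.59) and 7.91 (7.20 to 8.72). ILC-like cells held no Gzma UMI, which allows up to 211, 21.8, 46.3 and 15.6 CPM.

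A part of the NK cells had no Gzma in every library. It was found in 4 of 5, 22 of 29, 9 of 16 and 25 of 36 NK cell-like cells, and in 5 of 12, 8 of 64, 1 of 48 and 4 of 99 T cell-like cells. Among single NK cell-like cells it ran from 0 to 328 UMIs per 10000 UMIs of the cell in CCR2 KO 24 h, with a median of 69.7. At 72 h the medians were 21.3 in WT and 16.5 in CCR2 KO.

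Gzmb (granzyme B; chr14:56258838-56262260, minus strand, ENSMUSG00000015437.5) was shared between NK and T cells at 24 h. It stood in NK cell-like cells at 1400 CPM (975.2 to 1947), 1871 (1671 to 2088), 672.6 (533.3 to 837.1) and 1099 (974.6 to 1236), and in T cell-like cells at 1807 (1518 to 2135), 2475 (2345 to 2610), 113.3 (78.48 to 158.4) and 244.1 (212.9 to 278.7). At 24 h T cells were not below NK cells, and at 72 h NK cells were above, by a log2 ratio in WT of 2.57 (1.97 to 3.19), and of 2.17 (1.91 to 2.43) in CCR2 KO. Single cells weighed heavily. In WT 72 h, 1 of 16 NK cell-like cells held 53 of the 80 UMIs, and without it the level was 240.8 CPM. In CCR2 KO 72 h the level without the top cell was 925.6 CPM. Gzmb lies in a cluster of related granzyme genes, and reads shared between them may have been lost in counting, so its level is uncertain to that degree.

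Prf1 (perforin; chr10:61297833-61304680, plus strand, ENSMUSG00000037202.6) set NK cells apart from T cells in all 4 libraries. It stood in NK cell-like cells at 400 CPM (191.8 to 735.6), 1020 (874.5 to 1184), 201.8 (129.3 to 300.2) and 829.4 (721.5 to 948.9). In T cell-like cells it stood at 78.58 CPM (28.84 to 171), 38.27 (23.69 to 58.49), 16.67 (5.411 to 38.89) and 16.72 (9.359 to 27.58). The log2 ratios of NK over T were 2.35 (0.75 to 4.09), 4.74 (4.08 to 5.47), 3.60 (2.18 to 5.34) and 5.63 (4.88 to 6.50), and none of these intervals reached 0. ILC-like cells held 0, 108.9 (60.94 to 179.6), 30.87 (3.739 to 111.5) and 20.79 CPM (5.664 to 53.22). In CCR2 KO 24 h they stood between NK and T cells without overlap, and in the other libraries their intervals overlapped those of T cells. No T cell-like cell held more than 3 Prf1 UMIs, and an NK cell-like cell of CCR2 KO 72 h held 74.

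Nkg7 (chr7:43437073-43438249, plus strand, ENSMUSG00000004612.9) was found in 4 of 5, 28 of 29, 16 of 16 and 36 of 36 NK cell-like cells. Its level there was 4080 CPM (3327 to 4953), 2956 (2703 to 3225), 2707 (2420 to 3020) and 3071 (2860 to 3294). T cell-like cells held 1415 CPM (1160 to 1708), 1017 (934.1 to 1105), 693.3 (602.2 to 794.2) and 414.7 (373.6 to 459). ILC-like cells held 70.26 CPM (1.779 to 391.5), 341.2 (250.7 to 453.7), 108.1 (43.45 to 222.6) and 155.9 (105.2 to 222.6). The order NK, T, ILC therefore held in each library without overlap of neighbouring intervals.

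Ctsw (cathepsin W; chr19:5465043-5468507, minus strand, ENSMUSG00000024910.5) was the steadiest member in NK cells, where its levels were 1200 CPM (809.6 to 1713), 938.4 (798.6 to 1096), 1051 (874.8 to 1252) and 958.6 (842.3 to 1086) with intervals that all overlapped. It was found in 5 of 5, 28 of 29, 16 of 16 and 36 of 36 of these cells. T cell-like cells held 550.1 CPM (396.5 to 743.6), 340.7 (293.7 to 393.2), 243.3 (190.7 to 305.9) and 226.3 (196.2 to 259.7). ILC-like cells held 421.6 (154.7 to 917.5), 421 (319.7 to 544.3), 277.9 (164.7 to 439.2) and 452.1 CPM (362.1 to 557.7). ILC-like and T cell-like cells overlapped in the first 3 libraries, and in CCR2 KO 72 h the ILC-like cells stood above the T cells.

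Ifng (interferon-gamma; chr10:118441046-118445892, plus strand, ENSMUSG00000055170.4) was sparse, with 110 UMIs in 59 cells. Its level was 120 CPM (24.75 to 350.7), 46.92 (20.26 to 92.45), 25.22 (5.201 to 73.71) and 66.51 (38.75 to 106.5) in NK cell-like cells, on 3, 8, 3 and 17 UMIs. It was 78.58 CPM (28.84 to 171), 36.44 (22.26 to 56.28), 23.33 (9.38 to 48.07) and 33.44 (22.56 to 47.74) in T cell-like cells. The intervals of the NK and T classes overlapped in every library, and the log2 ratio of NK over T excluded 0 in CCR2 KO 72 h alone (0.99, 0.04 to 1.90). The cell with most, 13 UMIs, was a T cell-like cell of CCR2 KO 72 h that also held 10 UMIs of the NK receptor gene Ncr1 and 84 of Ccl5. The next, with 10 UMIs, was an ILC-like cell of the same library and held all the Ifng UMIs of its class.

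The members were found together in NK cells. At least 4 of the 6 were detected in 75.6% of NK cell-like cells (65 of 86), in 10.3% of T cell-like cells (23 of 223) and in 5.77% of ILC-like cells (3 of 52). By library these were 4 of 5, 22 of 29, 10 of 16 and 29 of 36 NK cell-like cells, and 6 of 12, 10 of 64, 0 of 48 and 7 of 99 T cell-like cells. No NK cell-like cell held fewer than 2 members, while 55 T cell-like cells held none. Median UMIs per cell were 3897 to 6655 in NK and 4817 to 7549 in T cell-like cells.

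**Figure D3:**
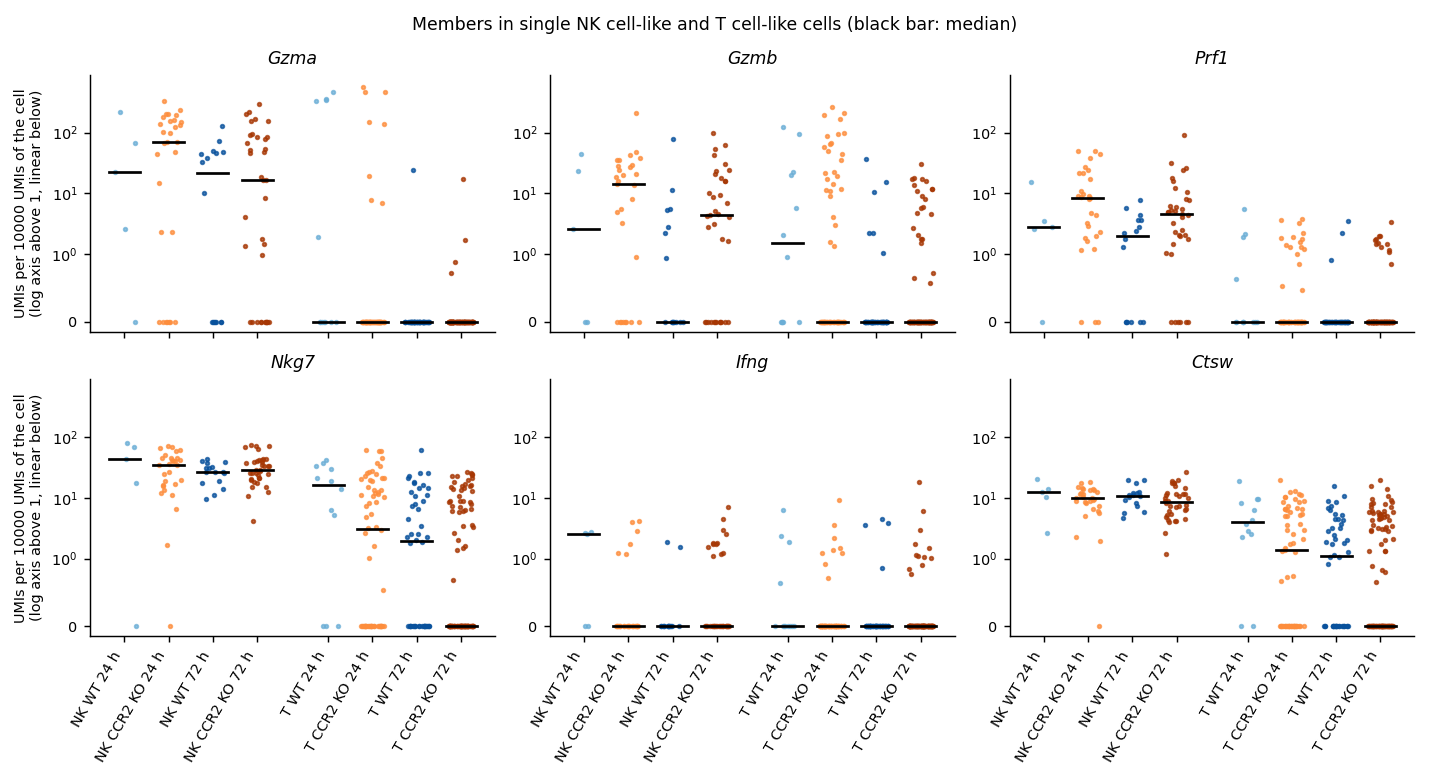
UMIs of each gene per 10000 UMIs of the cell (vertical axis, log above 1 and linear below) in every NK cell-like and T cell-like cell, by library, with the median as a black bar. Ctsw and Nkg7 were found in nearly all NK cell-like cells, whereas Gzma was at 0 in most T cell-like cells and reached 570 in CCR2 KO 24 h.

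At equal depth NK cells again held Prf1 more often than T cells, with intervals that overlapped in both WT libraries. Thinned to 1000 UMIs, 40% (5.27 to 85.3), 62.1% (42.3 to 79.3), 18.8% (4.05 to 45.6) and 27.8% (14.2 to 45.2) of NK cell-like cells held Prf1, against 80%, 89.7%, 62.5% and 83.3% before thinning. In T cell-like cells the thinned shares were 8.33% (0.211 to 38.5), 6.25% (1.73 to 15.2), 2.08% (0.0527 to 11.1) and 1.01% (0.0256 to 5.5), against 33.3%, 25%, 6.25% and 12.1%. For Gzma the thinned shares were 80% (28.4 to 99.5), 72.4% (52.8 to 87.3), 56.2% (29.9 to 80.2) and 55.6% (38.1 to 72.1) in NK cell-like cells. They were 33.3% (9.92 to 65.1), 9.38% (3.52 to 19.3), 2.08% (0.0527 to 11.1) and 2.02% (0.246 to 7.11) in T cell-like cells. In NK cell-like cells the intervals of both genes lay above the myeloid share, while in T cell-like cells at 72 h that of Gzma reached the myeloid share and that of Prf1 the share that a myeloid count of 0 allows.

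T cells fell into a few granzyme patterns. With 5 UMIs as the limit, 11 of 223 T cell-like cells held both Gzma and Gzmb, 3 held Gzma alone, 34 held Gzmb alone and 175 held neither. This limit, and the split by Itgae with Cd8a and by Foxp3 used next, were chosen after the values had been seen. The 11 cells with both granzymes numbered 4, 6, 0 and 1 by library and held 1792 of the 1825 Gzma UMIs of T cells. All 11 held Trac, Ccl5, Nkg7 and Ctsw, 10 held Cd8a, 8 held Itgae, 7 held Trdc (the delta chain of the T cell receptor), 7 held Prf1 and none held Foxp3.

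Itgae encodes CD103, an integrin chain of intraepithelial T cells, and T cell-like cells with UMIs of both Itgae and Cd8a numbered 4, 8, 0 and 2. In WT 24 h these 4 cells held 252, 174, 118 and 125 Gzma UMIs, which was 669 of the 670 in the T cells of that library. Their Gzmb was 67, 45, 7 and 8 UMIs and their Prf1 0, 0, 0 and 2 UMIs. In CCR2 KO 24 h, 3 of the 8 cells held 326, 289 and 251 Gzma UMIs, 1 held 14 and 4 held none. In CCR2 KO 72 h the 2 cells held 13 and 0. All 14 cells held Nkg7, at 6 to 37 UMIs, and Ctsw, at 1 to 20 UMIs. Most of them (10 of 14) were placed with the NK cells when cells were clustered.

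In WT 24 h, 2 cells of no class resembled them. They held 796 and 235 Gzma UMIs, 141 and 23 Gzmb UMIs and no Prf1 UMI. They also held Cd3g (61 and 25 UMIs), Cd8a (2 and 14), Itgae (7 and 7) and Ccl5 (225 and 158), but no UMI of Cd3e or Trac. Of the NK markers Ncr1 and Klrb1c, they held no UMI of Ncr1 and 2 and 1 UMIs of Klrb1c. When cells were clustered, both were placed with the NK cells. Cells of no class held 56% (53.7 to 58.3) of the 1841 Gzma UMIs of that library, T cell-like cells 36.4% (34.2 to 38.6) and NK cell-like cells 7.17% (6.03 to 8.45).

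**Figure D4:**
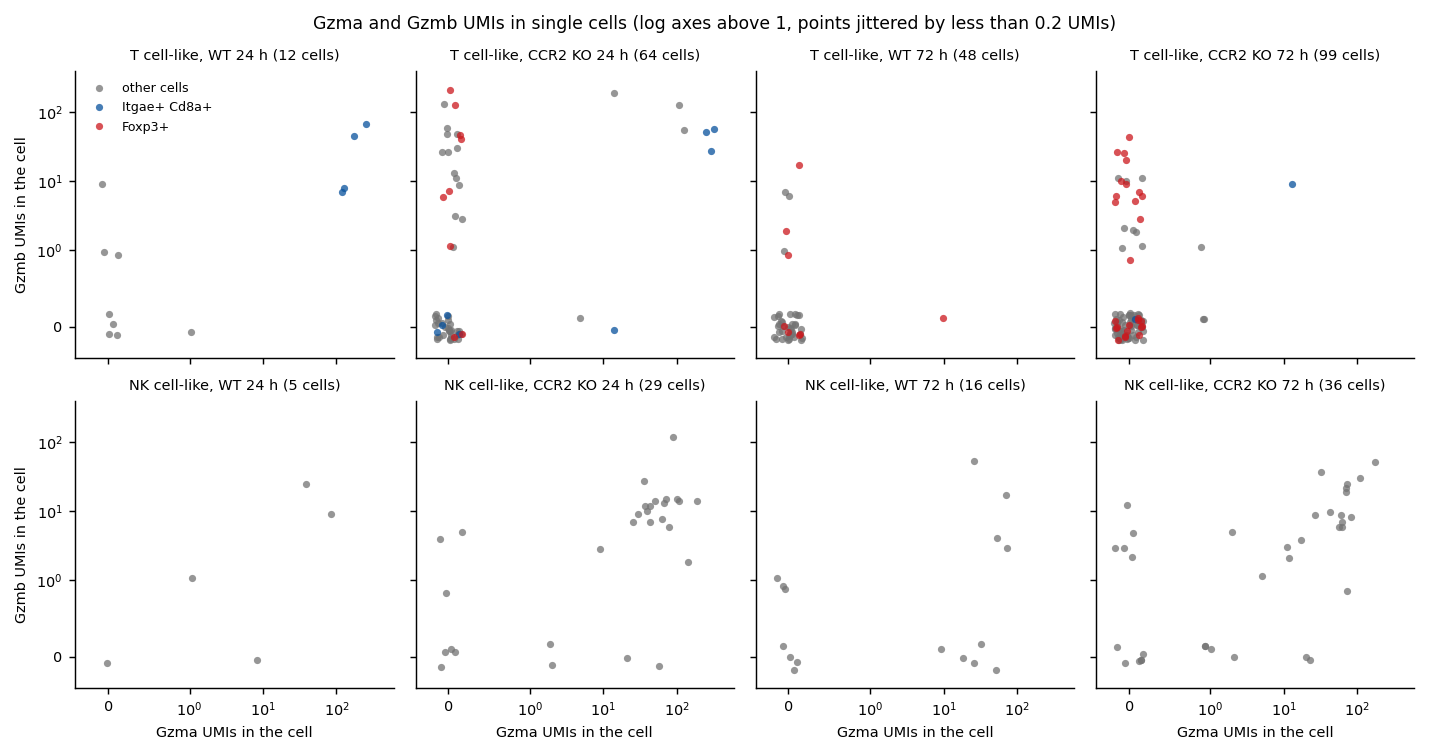
Gzma (horizontal axis) and Gzmb UMIs (vertical axis) of each T cell-like cell (top) and NK cell-like cell (bottom), by library, on axes that are log above 1, with T cells coloured by Itgae with Cd8a and by Foxp3. T cells with over 100 Gzma UMIs were all from 24 h libraries, and cells with Foxp3 reached 207 Gzmb UMIs with Gzma at 0.

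Gzmb without Gzma lay in another set of T cells. Of these 34 cells, 18 held Foxp3, the transcription factor of regulatory T cells, 23 held Il2ra, 18 held Cd4 and 1 held Cd8a. T cell-like cells with Foxp3 numbered 0, 9, 8 and 27. Gzmb was found in 7 of the 9 in CCR2 KO 24 h at 6081 CPM (5524 to 6678), in 3 of the 8 in WT 72 h at 404.3 (247 to 624.4) and in 13 of the 27 in CCR2 KO 72 h at 518.7 (443.4 to 603.1). T cells without Foxp3 held 1930 (1807 to 2059), 55.87 (30.55 to 93.75) and 87.53 CPM (64.97 to 115.4) in the same libraries. In WT 72 h the Foxp3 cells held 20 Gzmb UMIs, of which 17 lay in 1 cell.

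The Foxp3 cells lacked most of the other members. Over all 44 of them Nkg7 stood at 24.59 CPM (12.28 to 44) and Ctsw at 11.18 (3.629 to 26.09), against 898.2 (848.8 to 949.8) and 363.7 (332.5 to 397) in the other 179 T cells. Their Prf1 was 3 UMIs and their Gzma 10 UMIs, all 10 in 1 cell of WT 72 h. Other Gzmb cells were of further kinds. In CCR2 KO 24 h a cell with 69 Trdc UMIs held 131 Gzmb UMIs together with 20 UMIs of the cytokine gene Il17a, and a Cd4 cell with 30 Gzmb UMIs held 40 UMIs of the proliferation gene Mki67.

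Gzmb was also found outside T, NK and ILC-like cells. The 2 mast cell/basophil-like cells of CCR2 KO 24 h held 175 and 104 Gzmb UMIs, 13.5% of the Gzmb UMIs of that library, with 23 and 5 UMIs of Nkg7 and none of the other 4 members. They held Mcpt8, a basophil protease gene, at 78 and 15 UMIs, Cpa3 at 117 and 86 and Fcer1a at 54 and 11, and the first also passed the gate of another lineage. The 3 such cells of CCR2 KO 72 h held 0, 0 and 1 Gzmb UMIs, and WT had none of the class. Among ILC-like cells, 4 of 17 in CCR2 KO 24 h held 6, 8, 15 and 50 Gzmb UMIs and 1 of 23 in CCR2 KO 72 h held 7.

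Summed over all cells of a library, the members stood higher in CCR2 KO than in WT. At 24 h CPM in WT and in CCR2 KO was 86.81 and 241.4 for Gzma, 15.94 and 198 for Gzmb, 0.7545 and 20.79 for Prf1, 12.12 and 113.6 for Nkg7, 0.4716 and 2.97 for Ifng and 4.338 and 40.63 for Ctsw. At 72 h it was 22.47 and 117.9 for Gzma, 6.988 and 53.61 for Gzmb, 1.988 and 23.93 for Prf1, 34.52 and 123.1 for Nkg7, 0.6626 and 5.957 for Ifng and 15.42 and 57.41 for Ctsw. On the scale of log2(CPM + 10), which understates changes of low genes, 5 of 6 (all but Ifng) were more than 2-fold higher at 24 h, as were 4.52% of 12809 genes. The same 5 were at 72 h, as were 2.55% of 13310 genes. The median of the 6 was 1.67 at 24 h and 1.54 at 72 h, against -0.02 and 0.07 over all genes.

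These sums cannot tell more cells from more RNA per cell, or from fewer UMIs in the other cells. The libraries held 21206308, 10436694, 16600493 and 9736725 UMIs, and their Gzma UMIs were 1841, 2519, 373 and 1148. NK cell-like cells were 0.299% (0.0971 to 0.696), 1.63% (1.1 to 2.34), 1.22% (0.697 to 1.97) and 3.44% (2.42 to 4.72) of the cells, and T cell-like cells 0.717% (0.371 to 1.25), 3.61% (2.79 to 4.58), 3.65% (2.7 to 4.81) and 9.45% (7.74 to 11.4). Monocyte/Mφ-like cells were 74.7%, 11.3%, 70.2% and 13.3%. A share depends on all the other classes, and the part of these shares and totals in the summed levels was not tested.

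**Figure D5:**
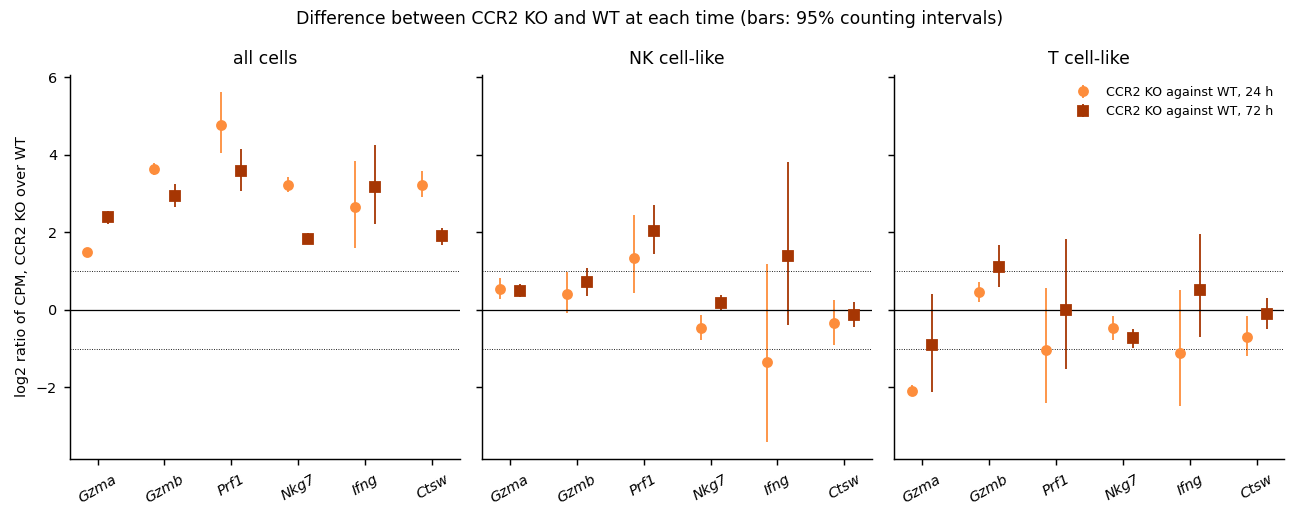
Log2 ratio of CPM in CCR2 KO over WT (vertical axis) for each gene at 24 h and 72 h, in all cells, NK cell-like cells and T cell-like cells, with 95% counting intervals and dotted lines at 2-fold. In all cells every ratio was above 1, whereas in NK cell-like cells Prf1 at both times and Ifng at 72 h were above 1.

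Within NK cells Prf1 was higher in CCR2 KO. At 72 h it stood at 829.4 CPM in CCR2 KO and 201.8 in WT, a log2 ratio of 2.04 (1.43 to 2.71), and without the top cell of each library at 557.8 and 169 CPM. Ifng was also more than 2-fold higher in CCR2 KO, on 17 and 3 UMIs, with a log2 ratio of 1.40 (-0.39 to 3.81). Gzma was higher by less (0.49, 0.32 to 0.67). Gzmb was higher by 0.71 (0.35 to 1.09), a value that 1 WT cell sets, since without the top cell of each library it stood at 925.6 against 240.8 CPM, more than 2-fold apart (1.94). The intervals of Nkg7 (0.18, -0.01 to 0.37) and Ctsw (-0.13, -0.45 to 0.19) included 0. These 2 of 6 members stand beside 6.72% of 5360 genes that were more than 2-fold higher and 5.82% that were lower.

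At 24 h WT had 5 NK cell-like cells. Prf1 was again higher in CCR2 KO (log2 ratio 1.35, 0.44 to 2.44), in a comparison where 20% of 3530 genes were more than 2-fold higher. Ifng was lower (-1.35, -3.41 to 1.19) on 8 and 3 UMIs, where 8.70% of genes were. Gzma was higher by 0.54 (0.28 to 0.81), and Nkg7 was lower (-0.47, -0.77 to -0.14). In WT 1 of the 5 cells held 64.4% of the Gzma UMIs, and 1 held 44.1% of the Nkg7 UMIs. Without the top cell of each library Gzma stood at 6803 in CCR2 KO against 2227 CPM (log2 ratio 1.61) and Nkg7 at 2828 against 2957 CPM (-0.06).

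Within T cells the difference in Gzma at 24 h rested on the few Gzma-rich cells. Gzma was lower in CCR2 KO, at 2057 against 8775 CPM (log2 ratio -2.09, -2.23 to -1.95). On log2(CPM + 10) it was the only member more than 2-fold lower, where 6.00% of 6780 genes were. As plain ratios of CPM, Ifng (-1.11, -2.48 to 0.50) and Prf1 (-1.04, -2.40 to 0.56) were also past 2-fold lower, with intervals that included 0. For Gzma the result depended on the cells taken. Its direction was the opposite when the Itgae with Cd8a cells were left out (4.94, 2.45 to 10.25, on 249 UMIs in CCR2 KO and 1 in WT) and when classes were taken from clusters (4.36, 1.87 to 9.68, on 164 and 1). At 72 h Gzmb was more than 2-fold higher in CCR2 KO, at 244.1 against 113.3 CPM (1.11, 0.58 to 1.67), where 2.58% of 8388 genes were. Foxp3 cells held 77.2% of the Gzmb UMIs of T cells in CCR2 KO 72 h and 58.8% in WT 72 h. The CCR2 KO cells held less Nkg7 at 24 h and at 72 h (-0.48, -0.78 to -0.17, and -0.74, -0.99 to -0.49).

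Between 24 h and 72 h, T cells differed more than NK cells. In WT T cell-like cells all 6 members were more than 2-fold lower at 72 h, with 12 cells at 24 h, where 6.90% of 5380 genes were, and the median of the 6 was -1.57 against 0.02 over all genes. The interval of Ifng (-1.75, -3.55 to 0.10, on 7 and 6 UMIs) included 0. The count was 3 of 6 in classes taken from clusters, where Gzma was at 0.77 (-2.05 to 6.20, on 10 UMIs at 72 h and 1 at 24 h). With a mitochondrial share of at most 5%, which left 4 cells at 24 h, the count was 2, with Nkg7 at 0.34. Prf1 was then at 0.90 (-2.44 to 6.52), on 4 UMIs at 72 h and 1 at 24 h. That is under the minimum for the count. In CCR2 KO 3 of 6 (Gzma, Gzmb and Nkg7) were more than 2-fold lower at 72 h on log2(CPM + 10), beside 1.20% of 8735 genes. As a plain ratio of CPM, Prf1 was also past 2-fold lower there (-1.19, -2.25 to -0.17), on 15 UMIs at 72 h and 21 at 24 h. Gzma went from 8775 to 33.33 CPM in WT, and the CCR2 KO cells went from 2057 to 17.84 CPM. Without the Itgae with Cd8a cells, Ifng alone of the members compared was more than 2-fold lower in WT. It had 6 UMIs at 24 h and 7 at 72 h. Prf1, at 67.75 and 16.67 CPM on 4 and 5 UMIs, was under the minimum of 10 UMIs and not compared. The log2 ratio of Gzma in WT was then 0.98 (-1.84 to 6.42), on 1 UMI at 24 h and 10 at 72 h. All 10 lay in 1 Foxp3 cell. In CCR2 KO without the Itgae with Cd8a cells, Gzma was still lower at 72 h (-7.26, -9.54 to -5.69). It had 249 UMIs at 24 h and 3 at 72 h. Gzmb went there from 2562 to 238.8 CPM and Nkg7 from 806.6 to 391.3. Markers linked with intraepithelial lymphocytes (Itgae, Cd160, Xcl1 and Ccl5, 4 of 4 detected) summed to 7767, 4705, 2803 and 1722 CPM in T cell-like cells. In NK cell-like cells they summed to 7200, 9712, 4700 and 8310 CPM, and their part in the results was not tested.

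In CCR2 KO NK cell-like cells none of the 6 members was more than 2-fold higher or lower at 72 h than at 24 h, where 4.56% and 4.40% of 5745 genes were. Gzma was lower by less (-0.84, -0.96 to -0.72), as was Gzmb (-0.77, with an upper bound of -0.53). In WT, Gzmb was more than 2-fold lower (-1.06, -1.65 to -0.44), where 8.72% of 2614 genes were, and Gzma was lower by less (-0.79, -1.09 to -0.50). Without the top cell of each library the direction of Gzma turned, from 2227 to 2543 CPM (0.19). Summed over all cells of WT, Nkg7 was more than 2-fold higher at 72 h, as were 2.25% of genes, and Gzma lower, as were 1.35%. In CCR2 KO Gzmb was lower, as were 1.86%.

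Other genes of the cytotoxic program were taken from 7 lists, and their log2 ratios of NK over T are given over the 4 libraries together. Among granule proteins, Gzmc, another granzyme, was higher in NK cells (3.57, 3.26 to 3.89), as were Serpinb9 (2.92, 2.59 to 3.25) and Serpinb6b (2.49, 2.18 to 2.82), which belong to a family of protease inhibitors. Srgn, the granule proteoglycan, was lower (-0.50, -0.63 to -0.37). Gzmc stood in NK cell-like cells at 80, 633, 92.5 and 1099.4 CPM and in T cell-like cells at 210, 151, 6.67 and 7.8. Gzmk, named after its values were seen, had no UMI in NK cells and 41.2 CPM in T cells. Granzyme genes therefore differed in which class held them.

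Genes of granule release did not follow the members. Vamp8 (-0.13, -0.45 to 0.19), Stxbp2 (-0.05, -0.63 to 0.50) and Stx11 (-0.15, -0.83 to 0.48) had intervals that included 0, and Lyst was higher in NK cells (0.63, 0.07 to 1.16). In CCR2 KO 72 h, however, Lyst stood at 46.9 CPM in NK cells and 49 in T cells. Of the death ligands, Fasl was higher in NK cells (2.27, 1.85 to 2.71) and Tnf was lower (-0.87, -1.63 to -0.18). Tnf went the other way in CCR2 KO 72 h, at 62.6 CPM in NK cells and 51.3 in T cells. The interval of Tnfsf10 included 0 (0.70, -0.01 to 1.38).

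Of 9 receptor genes 8 were higher in NK cells, among them Tyrobp at 4.20 (3.99 to 4.41), Fcer1g at 3.27 (3.12 to 3.42), Klrk1 at 2.88 (2.69 to 3.07) and Hcst at 0.46 (0.28 to 0.63). Tyrobp, Fcer1g and Hcst encode signalling adaptors, and Klrk1 the receptor NKG2D. Among transcription factors Tbx21 (1.68, 1.26 to 2.09), which drives type 1 responses, was higher in NK cells, as were Id2 (0.79, 0.66 to 0.92), Runx3 (0.51, 0.24 to 0.77) and Stat4 (0.50, 0.20 to 0.80). Of the receptors for cytokines that induce Ifng, Il2rb (1.61, 1.45 to 1.78) and Il18rap (1.45, 1.04 to 1.86) were higher in NK cells, and Il18r1 (0.08, -0.21 to 0.38) and Il12rb1 (-0.57, -1.27 to 0.07) were not set apart. In WT 24 h, with 5 NK cell-like cells, 3 of these genes went the other way. NK and T cell-like cells there held Tbx21 at 40 and 118 CPM, Id2 at 800 and 878 and Il18rap at 40 and 78.6. In each other library these genes stood higher in NK cells. Of the interferon-gamma receptor and targets, Ifngr1 was slightly higher in NK cells over the libraries together (0.16, 0.05 to 0.28). In WT 72 h Ifngr1 was lower in NK cells, at 1059.3 CPM against 1613.2 in T cells. Irf1 (0.21, -0.17 to 0.57) and Gbp2 (-0.51, -1.11 to 0.05) were not set apart.

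Between genotypes in NK cell-like cells at 72 h, where 6.72% of all genes were more than 2-fold higher in CCR2 KO and 5.82% lower, few genes of these lists were past 2-fold, and they are named here after their values were seen. Those higher were 1 of 7 granule proteins compared (Gzmc), 1 of 7 release genes (Stx11, on 10 and 0 UMIs), 1 of 3 death ligands (Tnf, on 16 and 0 UMIs), 1 of 6 transcription factors (Zeb2) and 0 of 9 receptors and 5 Ifng inducers, and 1 release gene (Lyst, on 12 and 14 UMIs) was lower. In T cell-like cells of CCR2 KO, where 1.20% of all genes were more than 2-fold lower at 72 h than at 24 h, 2 of 8 granule proteins (Gzmc and Serpinb6b), 2 of 8 receptors (Fcer1g and Tyrobp) and 2 of 6 interferon-gamma targets (Cxcl10 and Gbp2) were. None of the 7 release genes, 4 death ligands, 7 transcription factors or 6 Ifng inducers was. Gzmd, Gzme, Gzmf, Gzmg, Gzmn and Cd244a were not among the genes counted under these names.

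The genes most like each member were sought over the 19 sums of a class in a library with at least 20 cells, by Pearson's r of log2(CPM + 10) with 11733 genes that are neither members nor markers. These r are descriptions, since the sums share libraries and differ mainly between lymphoid and myeloid classes. Ctsw was most like Il2rb (0.995), Camk2n1 (0.993), Sytl3 (0.986), Gm14029 (0.984) and Skap1 (0.981), and Ifng most like Camk2n1 (0.992), Il2rb (0.988), Xkr6 (0.979), Zap70 (0.977) and Skap1 (0.977). Nkg7 was most like Gm20069 (0.994), Pim2 (0.984), Il2rb (0.981), Sytl2 (0.980) and Sytl3 (0.980). Prf1 was most like Cuedc1 (0.979), Klrb1a (0.976), Atp1b1 (0.973), Klrc2 (0.971) and Arl4d (0.971). Gzmb was most like Cracr2a (0.967), Sytl2 (0.967), Gm2682 (0.966), Dapk2 (0.965) and Baiap3 (0.959), and Gzma most like Ncald (0.952), Klrc2 (0.949), Fasl (0.945), Cracr2a (0.941) and Samd3 (0.934). Between members r ran from 0.751 for Gzma with Ifng to 0.993 for Ifng with Ctsw.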

How the data were processed

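Raw UMI counts per gene and cell were deposited by the authors for 4 libraries of CD45+ muscularis cells, 1 per group. Per the labels and the study's methods, reads were processed with Cell Ranger 3.0.2 on GRCm38 (mm10) and cells were filtered in Seurat. The deposited cells held at least 250 genes and at most 9.99% mitochondrial UMIs. Doublet removal is not given in the sources used here, no doublet caller was run, and the 256 cells past the gates of several lineages were removed in an alternative.

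Cells were gated per cell on fixed marker lists. A cell needed 5 markers for T cells, 3 for NK, ILC, B, plasma, dendritic and plasmacytoid dendritic cells, 4 for monocytes/Mφs and neutrophils and 2 for eosinophils and mast cells/basophils, and cells past several gates went to the class with more marker UMIs. These limits were set after the data were seen. The members and lists were chosen with earlier results of these data known.

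UMIs were summed per class and library and given as CPM. Shares were computed after thinning each cell to 1000 UMIs. A gene was compared between libraries with at least 10 UMIs in the pair and counted when past 2-fold on log2(CPM + 10). No test was run, and intervals are exact 95% intervals of counting error (scipy 1.17.1, numpy 2.4.6, pandas 2.3.3, Python 3.11.15). The scripts were tested on simulated data. List genes named had at least 20 UMIs in NK or T cells, at most 4 per list by UMI total, and Gzmk was added. Of these, 1 gene is not reported here. Alternatives were clusters (leidenalg 0.10.2), stricter gates, other cell filters, totals, weights, minimums and pseudocounts, and 2 chosen after seeing the data: cells of no class with 2 T markers as T cells, and Itgae with Cd8a T cells left out. Promoter sequences were taken from RefSeq (GRCm38.p6), which held 5 of the 6 members.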

Additional observations from a re-analysis of the deposited data

Results flagged for a closer look

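Nkg7 in NK cell-like cells had log2 ratios of CCR2 KO over WT of opposite sign at the 2 times, -0.47 (-0.77 to -0.14) at 24 h and 0.18 (-0.01 to 0.37) at 72 h, with counting intervals that did not overlap. Seen over time, its log2 ratio of 72 h over 24 h was -0.59 in WT (-0.92 to -0.26), and the CCR2 KO cells gave 0.06 (-0.11 to 0.22). With 1 library per group, these differences were not tested, and WT 24 h had 5 NK cell-like cells, of which 1 held 44.1% of the Nkg7 UMIs. Without the top cell of each library Nkg7 stood at 2828 CPM in CCR2 KO against 2957 CPM in WT at 24 h, and at 2942 against 2625 CPM at 72 h.

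Cells that were in none of the compared classes held members. In WT 24 h, cells of no class held 56% of the Gzma UMIs, 48.5% of the Gzmb UMIs and 17.5% of the Nkg7 UMIs. In CCR2 KO 24 h, mast cell/basophil-like cells, of which there were 2, held 13.5% of the Gzmb UMIs.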

How the results depend on the processing

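Of 706 log2 ratios recomputed under 10 alternatives, 587 stayed within the counting interval first given, 98 moved outside it with the same sign, 13 did so with the sign changed from a value under 2-fold, and 8 past 2-fold reversed. Counted over all of them, 39 changed sign, and of 120 thinned shares 93 stayed within. In classes taken from Leiden clusters, the log2 ratio of CCR2 KO over WT at 24 h was 0.38 for Ifng in NK cells and 4.36 for Gzma in T cells, and that of 72 h over 24 h in WT T cells 0.77 for Gzma. There, 3 of 6 members were past 2-fold lower in WT T cells, 97.8% of member UMIs lay in T, NK and ILC-like cells (86.3% as reported), and 65.1% of NK cells held at least 4 members. That share of UMIs was 85.2% with 1 more marker, 89.1% without cells past several gates, 84.8% with a mitochondrial share of at most 5%, 95.4% with unclassed cells counted as T cells and 83.7% without the Itgae with Cd8a T cells. With the mitochondrial limit, which left 4, 35, 11 and 27 T cell-like cells, Prf1 in T cells was at 0.39 (CCR2 KO over WT, 24 h). It was at 0.90 for 72 h over 24 h in WT, on 4 UMIs at 72 h and 1 at 24 h, and Nkg7 at 0.34. With this limit 2 members were lower over time in WT T cells, where Prf1 was under the minimum, and 6 of 6 in CCR2 KO. With a pseudocount of 50, the members past 2-fold were 3 and 2 in all cells at 24 h and 72 h, 1 in NK cells at 72 h and 3 in WT T cells over time. Without the Itgae with Cd8a T cells, Gzma was at 4.94 (CCR2 KO over WT, 24 h), 0.98 (72 h over 24 h, WT) and -7.26 (72 h over 24 h, CCR2 KO). Of the members compared, 1 (Ifng) was lower in WT T cells over time, and Prf1 was under the minimum there. Apart from what these settings do by construction, the cause was not tested. No paired analysis was possible because each group is 1 library and the groups share only replicate number 1. Depth limits Ifng most, with 110 UMIs, and WT 24 h, with 5 NK cell-like and 12 T cell-like cells.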
